A study of Mus musculus with 4 samples.

Results

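The genes described here are 10 markers of the embryonic heart, the transcription factor genes Nkx2-5 and Tbx20, the contractile genes Myl7, Myl4, Myl2, Myl3, Myh6, Myh7 and Tnnt2, and the hormone gene Nppa. They were chosen by name, with earlier results of these data known. All 10 were among the 18220 named genes on the array and among the 13580 genes tested, through 16 probes, 2 each for 6 genes and 1 each for 4. Their signal was compared between the posterior part of Jmjd3-/- embryos and of wild-type embryos at E9.5, bred by crossing Jmjd3+/- mice and staged by mating time and somite number. Each genotype had 2 independent RNA samples with 1 array each, Jmjd3-/- arrays 1 and 9 and wild-type arrays 3 and 4, named by their replicate numbers. Jmjd3 (current symbol Kdm6b) codes for a demethylase that takes repressive methyl groups off histone H3. Allele, strain and the number of embryos per sample are not stated in the sources used here, and a p-value here reflects only the variation among 4 samples, which may be technical.

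The heart forms in the trunk just behind the head, and its inflow end lies nearest to the rear of the embryo. Nkx2-5 and Tbx20 are among the factors that turn on the cardiac programme. Myosin drives contraction through heavy chains, which Myh6 and Myh7 encode in heart, and light chains that stabilise their lever arm. In the later heart Myl7, Myl4, Myh6 and Nppa mark the atria and Myl2, Myl3 and Myh7 the ventricles. In the young heart tube several of them, Myl7 among them, are active more widely, so the names atrial and ventricular refer to the mature organ.

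Kdm6b had a normalised log2 signal of 2.15 on wild-type array 3, 2.23 on wild-type array 4, 0.35 on Jmjd3-/- array 1 and 0.11 on Jmjd3-/- array 9, a log2 difference of -1.96 (SE 0.12) with a limma adjusted p of 0.149, and the sources used here do not say if its probe lies in the deleted part. All signals are log2 values less the 75th percentile of the array, so 0 is that percentile. Between 59.8% and 63.0% of an array's probes were well above background. At 805 and 706 genes Jmjd3-/- array 1 differed over 2-fold from wild-type arrays 3 and 4, and Jmjd3-/- array 9 did at 353 and 332, so the Jmjd3-/- arrays were not equally far from wild-type. The tail bud list had all 14 genes tested. Of 12 head and branchial arch genes on the array 9 were tested, and 2, Otx2 and Six3, were well above background on 0 arrays. Over all genes, 5 of 13580, 0.0368%, had a limma adjusted p under 0.05, 3 as higher (0.0221%) and 2 as lower (0.0147%), and 0 of the 10 heart genes were among them. At an unadjusted limma p under 0.05, 4 of the 10 were lower, against 5.93% of all genes, and 0 were higher, against 5.15%.

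The heart genes fell into 4 with large decreases and 6 with small or no clear differences. Nkx2-5, Myl4, Myl7 and Tnnt2 were lower on both Jmjd3-/- arrays than on both wild-type arrays, by 2.66-fold to 3.71-fold on average. Myl2, Myh7 and Nppa were slightly higher on both Jmjd3-/- arrays, by 1.22-fold to 1.28-fold, each with a 95% interval that includes 0. Tbx20, Myl3 and Myh6 overlapped between the genotypes. Thus 4 of 10 were more than 2-fold lower, against 2.11% of all genes tested, and 0 of 10 were more than 2-fold higher, against 0.913%. The 10 genes were chosen with earlier results of these data known, so these shares describe them and test nothing. Nkx2-5, among the 4, passed the filter through its wild-type arrays. By order alone, 4 of 10 had both Jmjd3-/- arrays below both wild-type arrays, where 23.7% of all genes did, and 3 of 10 had them above, where 23.0% did. The median over the 10 genes was -0.13, against -0.012 over all genes tested, and it does not describe the 4 genes with large decreases. It was -0.67 without wild-type replicate 4 and 0.092 without wild-type replicate 3, and the count of 4 genes more than 2-fold lower was the same with any 1 array left out. It was 3 with normexp background correction, and 3 of 8 with a filter on all 4 arrays, which drops Nkx2-5 and Myh6.

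**Figure D1:**
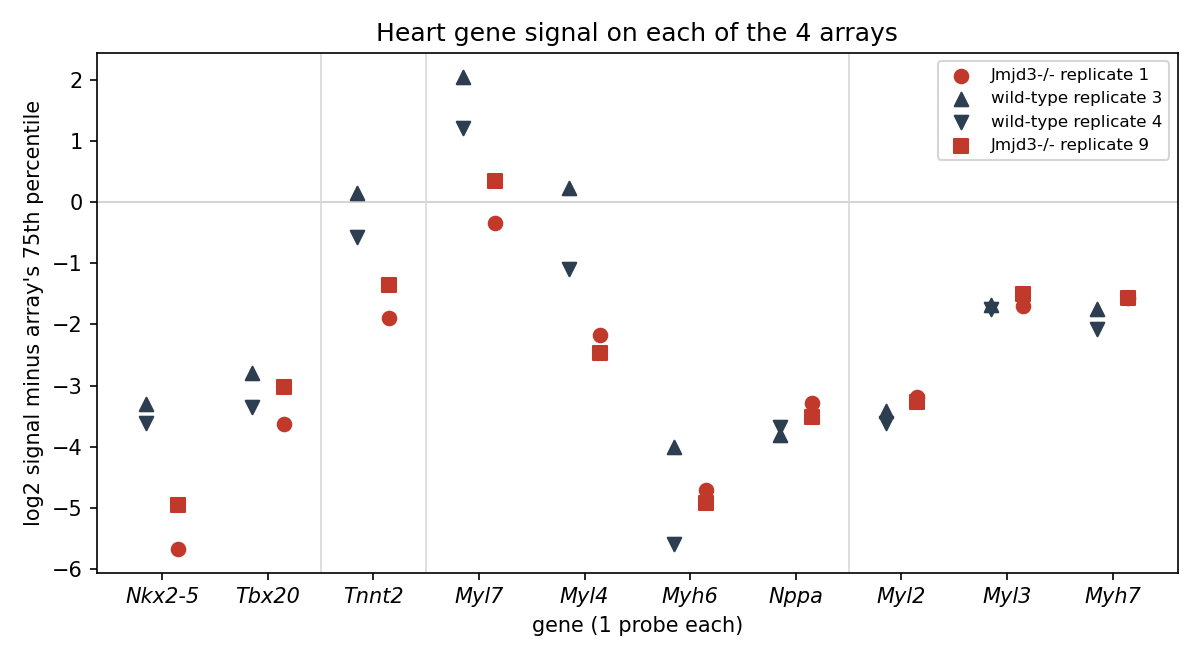
Normalised log2 signal of the 10 heart genes, 1 probe each, on the 2 wild-type arrays (dark triangles) and the 2 Jmjd3-/- arrays (red circles and squares); vertical lines separate transcription factors, Tnnt2, atrial and ventricular genes. Nkx2-5, Tnnt2, Myl7 and Myl4 have both red points below both dark points, and the wild-type arrays lie 1.33 apart at Myl4 and 1.59 apart at Myh6.

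The sequences just upstream of 3 of these genes are shown as examples. Myl7 was lower on both Jmjd3-/- arrays with a large difference. Nppa was slightly higher on both, and Myl3 overlapped between the genotypes. The windows are the 250 bases before the annotated start, from RefSeq (GRCm38.p6), where all 10 genes matched, with 13 windows. Capitals mark AAGTG, a core bound by Nkx2-5 and its relatives; GATAA, bound by GATA factors; GGTGTGA, bound by T-box factors; and the CArG box, bound by SRF, each on either strand, with no overlap between matches. The windows lie at chr11:5898783-5899032, minus strand, for Myl7, at chr9:110763428-110763677, plus strand, for Myl3, and at chr4:148000472-148000721, plus strand, for Nppa, each written 5′ to 3′ on the gene's strand.
Myl7: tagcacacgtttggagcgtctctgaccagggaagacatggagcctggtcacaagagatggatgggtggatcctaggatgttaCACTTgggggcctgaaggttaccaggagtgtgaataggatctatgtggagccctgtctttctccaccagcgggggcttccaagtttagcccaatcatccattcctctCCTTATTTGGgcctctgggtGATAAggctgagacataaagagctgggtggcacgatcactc
Myl3: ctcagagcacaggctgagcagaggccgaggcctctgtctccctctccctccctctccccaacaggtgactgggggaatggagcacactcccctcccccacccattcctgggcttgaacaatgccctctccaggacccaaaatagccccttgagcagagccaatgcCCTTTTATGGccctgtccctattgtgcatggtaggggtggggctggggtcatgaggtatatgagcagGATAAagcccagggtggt
Nppa: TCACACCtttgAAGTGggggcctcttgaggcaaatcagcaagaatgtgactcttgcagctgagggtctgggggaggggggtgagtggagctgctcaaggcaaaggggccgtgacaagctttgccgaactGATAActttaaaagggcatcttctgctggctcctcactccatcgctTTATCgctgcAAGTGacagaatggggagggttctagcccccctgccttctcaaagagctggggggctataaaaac
The CArG box was found in 2 of the 10 genes, Myl7 and Myl3, and in 1.47% of the 32851 windows in the RefSeq table. The letters AAGTG were in 6 genes and in 40.7% of all windows, GATAA in 5 genes and in 22.6%, and GGTGTGA in 1 gene, Nppa, and in 3.33%. The MEF2 site was in 0 of the 10 and in 2.92% of all windows. A gene was counted if any of its windows matched, while the shares are of single windows, so the 2 are not in the same unit. These matches describe letters in 1 window of each start.

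Nkx2-5, the homeobox gene that marks cardiac progenitors and heart muscle, had a signal of -3.30 on wild-type array 3, -3.61 on wild-type array 4, -5.67 on Jmjd3-/- array 1 and -4.96 on Jmjd3-/- array 9. Both Jmjd3-/- values lay more than 1 log2 unit below the lower wild-type value. The mean was 27.5% of wild-type, a log2 difference of -1.86 (SE 0.29) with a limma adjusted p of 0.299, rank 169 of 13580 by p. Its probe is dim. The processed signal was 61.0 and 51.5 units in wild-type and 11.8 and 18.6 in Jmjd3-/-, where replicate 1 was not well above background. The gene therefore passed the filter through its wild-type arrays. With normexp background correction, which adds 50 units to every spot, the log2 difference was -0.57.

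Tbx20, the T-box gene needed for growth of the heart chambers, had a signal of -2.79 on wild-type array 3, -3.36 on wild-type array 4, -3.63 on Jmjd3-/- array 1 and -3.03 on Jmjd3-/- array 9. The genotypes overlapped, and the log2 difference was -0.25 (SE 0.31) with a limma adjusted p of 0.783 and a 95% interval of -1.13 to 0.62. Leaving out Jmjd3-/- replicate 1 gave 0.044 and leaving out wild-type replicate 3 gave 0.029, so its sign is not settled. A dimmer probe for another Tbx20 transcript was well above background on 0 arrays.

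Both light chain genes of the atrial type were lower in Jmjd3-/-. Myl7, the atrial regulatory light chain, had a signal of 2.05 on wild-type array 3, 1.21 on wild-type array 4, -0.34 on Jmjd3-/- array 1 and 0.35 on Jmjd3-/- array 9. Its processed signal was 2482 and 1453 units in wild-type and 478 and 738 in Jmjd3-/-, so the groups did not overlap. The log2 difference was -1.62 (SE 0.40) with a limma adjusted p of 0.358.

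Myl4, the essential light chain of atrial and of embryonic muscle, had a signal of 0.23 on wild-type array 3, -1.10 on wild-type array 4, -2.18 on Jmjd3-/- array 1 and -2.47 on Jmjd3-/- array 9. It was lower on both Jmjd3-/- arrays, but the wild-type arrays were themselves 2.51-fold apart. The log2 difference was -1.89 (SE 0.50) with a limma adjusted p of 0.370. It was -1.23 without wild-type replicate 3 and -2.56 without wild-type replicate 4. Its other probe, also well above background on all 4 arrays, differed by -2.32 (SE 0.55; limma over 25056 probes, adjusted p = 0.415). In that fit 0 probes passed.

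Tnnt2, the cardiac troponin T that ties the troponin complex to tropomyosin, had a signal of 0.14 on wild-type array 3, -0.57 on wild-type array 4, -1.90 on Jmjd3-/- array 1 and -1.35 on Jmjd3-/- array 9. The groups did not overlap, with the higher Jmjd3-/- array, replicate 9, below the lower wild-type array, replicate 4. The log2 difference was -1.41 (SE 0.33), 2.66-fold, with a limma adjusted p of 0.347.

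Ventricular genes did not share that pattern. Myl2, the ventricular regulatory light chain, had a signal of -3.42 on wild-type array 3, -3.61 on wild-type array 4, -3.18 on Jmjd3-/- array 1 and -3.27 on Jmjd3-/- array 9, low on every array and a little higher in Jmjd3-/-. Its log2 difference was 0.29 (SE 0.10) with a limma adjusted p of 0.454 and a 95% interval of -0.0046 to 0.58. The interval does not reach the size seen for Myl7.

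Myl3, the ventricular essential light chain, had a signal of -1.68 on wild-type array 3, -1.75 on wild-type array 4, -1.69 on Jmjd3-/- array 1 and -1.499 on Jmjd3-/- array 9. Its log2 difference was 0.12 (SE 0.10), with a limma adjusted p of 0.703 and a 95% interval of -0.18 to 0.41, and its dimmer probe differed by 0.35 (SE 0.25; n = 2 per genotype). The genotypes overlapped on both probes.

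Myh7, the slow heavy chain of ventricle and slow muscle, had a signal of -1.75 on wild-type array 3, -2.08 on wild-type array 4, -1.56 on Jmjd3-/- array 1 and -1.56 on Jmjd3-/- array 9. The Jmjd3-/- arrays were nearly equal and both above wild-type, with a log2 difference of 0.35 (SE 0.14), a limma adjusted p of 0.476 and a 95% interval of -0.039 to 0.75. On its dimmer probe the genotypes overlapped, with a difference of 0.15 (SE 0.25). Myh6 and Myh7 are near-identical neighbours on chromosome 14, and whether their probes bind the other transcript was not tested.

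Myh6 and Nppa, though atrial in the later heart, did not go with Myl7 and Myl4. Myh6, the fast heavy chain, had a signal of -3.999 on wild-type array 3, -5.59 on wild-type array 4, -4.70 on Jmjd3-/- array 1 and -4.91 on Jmjd3-/- array 9, near background, and was not well above it in wild-type replicate 4, so it passed the filter through its Jmjd3-/- arrays. The wild-type arrays were 3.02-fold apart and enclosed both Jmjd3-/- values, so the log2 difference of -0.013 (SE 0.59), limma adjusted p = 0.995, has a 95% interval of -1.68 to 1.66 that covers a difference as large as that of Tnnt2. Its dimmer probe differed by -0.45 (SE 0.38).

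Nppa encodes atrial natriuretic peptide, which the atria and the trabeculae of the young ventricles make. Its signal was -3.81 on wild-type array 3, -3.68 on wild-type array 4, -3.28 on Jmjd3-/- array 1 and -3.52 on Jmjd3-/- array 9, higher on both Jmjd3-/- arrays by a small amount. The log2 difference was 0.34 (SE 0.12) with a limma adjusted p of 0.452. A dimmer probe was well above background on 0 arrays.

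**Figure D2:**
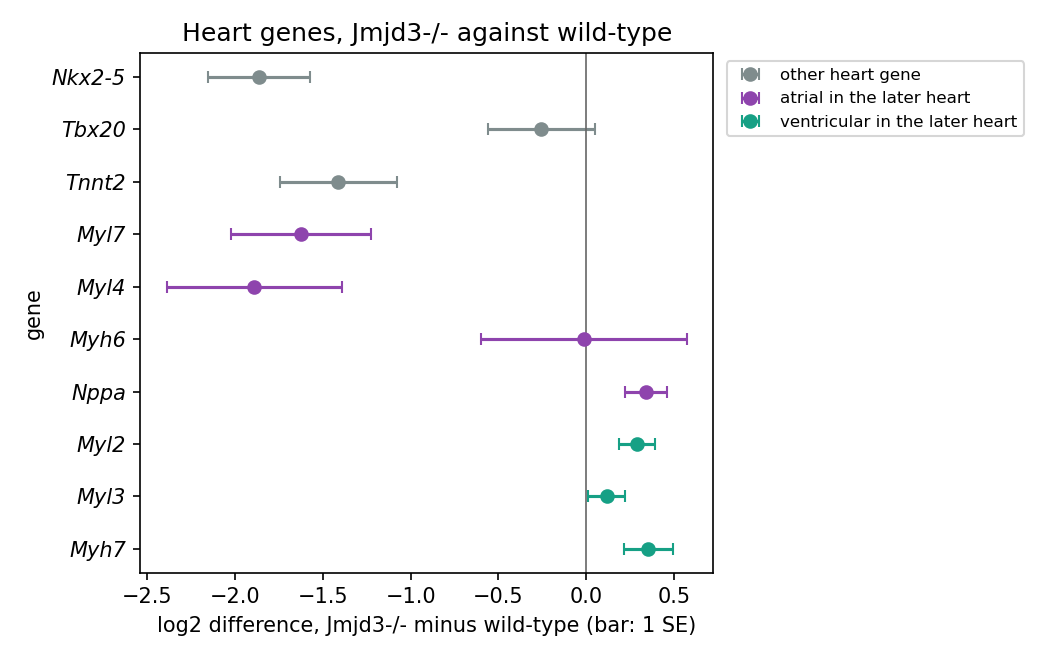
Log2 difference, Jmjd3-/- minus wild-type, with 1 standard error from limma (n = 2 per genotype), for the 10 heart genes, coloured by the chamber they mark in the later heart. Nkx2-5, Tnnt2, Myl7 and Myl4 lie at or below -1.41, while Myl2, Myl3 and Myh7 lie between 0.12 and 0.35.

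**Figure D3:**
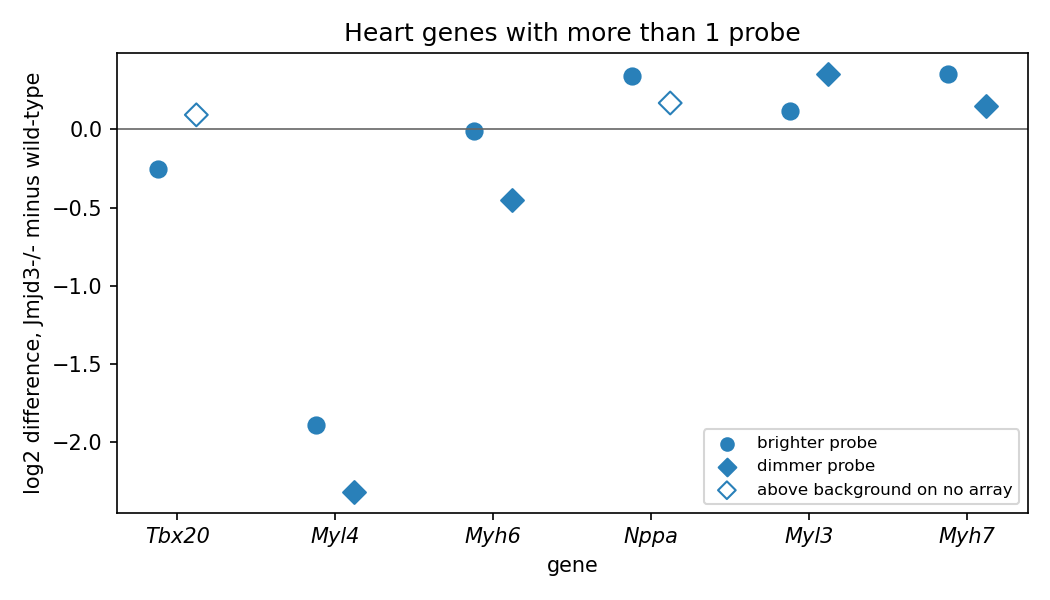
Log2 difference of each probe for the 6 heart genes with 2 probes, with open symbols for probes above background on 0 arrays. Both probes have the same sign for Myl4, Myl3 and Myh7. The brighter Myh6 probe lies at -0.013 (SE 0.59), so its sign is not settled. The dimmer probes of Tbx20 and Nppa are open and carry no sign.

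Atrial and ventricular genes were set against each other as a sign of where the tissue was cut. The 4 atrial genes had a median log2 difference of -0.82 and the 3 ventricular genes of 0.29. Leaving out wild-type replicate 3 gave an atrial median of -0.46, and leaving out wild-type replicate 4 gave -1.43. On each array, the mean deviation from wild-type over the atrial genes less that over the ventricular genes was -1.03 on Jmjd3-/- array 1, -1.08 on Jmjd3-/- array 9, 0.35 on wild-type array 3 and -0.35 on wild-type array 4. Both Jmjd3-/- arrays thus lay below both wild-type arrays, and the Jmjd3-/- mean was -1.05. With 2 arrays against 2, no permutation of the labels can give a p under 0.05, and none is given.

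That contrast rests on the light chains. Over Myl7 and Myl4 less Myl2 and Myl3 it was -2.03 on Jmjd3-/- array 1 and -1.89 on Jmjd3-/- array 9, against 0.48 and -0.48 in wild-type. Both atrial light chain genes lie on chromosome 11, which also holds Kdm6b. With that chromosome left out, Myh6 and Nppa stand for the atrial genes and the contrast was -0.090, with an atrial median of 0.16. The other 2 genes with large differences, Nkx2-5 and Tnnt2, lie on chromosomes 17 and 1. In whole tissue, fewer heart cells and less of a transcript per cell cannot be told apart.

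**Figure D4:**
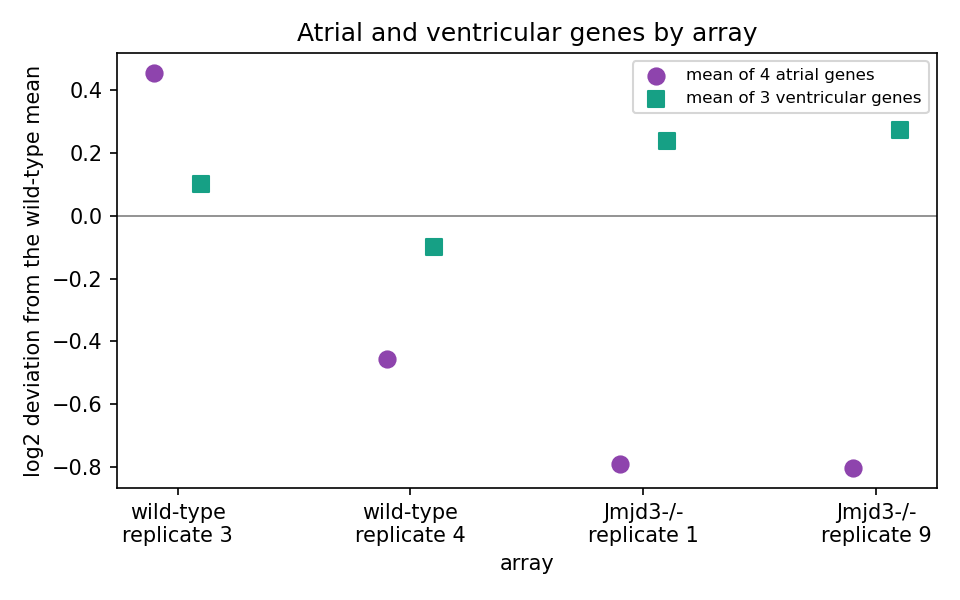
Mean log2 deviation from the wild-type mean of the 4 atrial genes (circles) and the 3 ventricular genes (squares) on each array. The atrial mean is -0.79 and -0.80 on the Jmjd3-/- arrays while the ventricular mean is 0.24 and 0.27, and the wild-type arrays differ from each other at the atrial genes.

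The wild-type arrays differed at the heart genes more than at most genes. Wild-type replicate 3 was above replicate 4 at 9 of the 10 genes, Nppa being the exception. The median gap between these arrays was 0.45 over the 10 genes and 0.076 over all genes tested, and 2 of the 10, Myl4 and Myh6, were more than 2-fold apart, against 1.16% of all genes. Between the Jmjd3-/- arrays the median gap was 0.27 over the 10 genes and 0.16 over all.

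Other genes of the cardiac programme were taken by list. Of 23 further cardiac transcription factor genes 22 were tested, and 0 passed the limma threshold in either direction. Of the 22, 16 differed downward and 6 upward, median -0.26, where 7216 of all 13580 genes tested were negative. Both Jmjd3-/- arrays were below both wild-type arrays at 13 and above them at 4, against 23.7% and 23.0% of all genes. At an unadjusted limma p under 0.05, 7 were lower and 3 higher, against 5.93% and 5.15% of all genes. Tbx5, which specifies the atria and inflow as well as the forelimb, differed by -1.05 (SE 0.16). The GATA factor gene Gata5 differed by -0.59 (SE 0.11), and Tbx2, a repressor of the chamber programme, by -0.68 (SE 0.14). Tbx1, a gene of the pharyngeal mesoderm that feeds the outflow tract, differed by -0.68 (SE 0.14). The limma adjusted p of these 4 genes ranged from 0.279 to 0.334.

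Of 20 other sarcomere and cytoskeleton genes 14 were tested, and 0 passed in either direction; 10 were negative and 4 positive, with a median of -0.19. Both Jmjd3-/- arrays were below both wild-type arrays at 7 of the 14, against 23.7% of all genes tested, and above them at 2, against 23.0%. Unc45b, the chaperone that folds striated muscle myosin, differed by -1.45 (SE 0.43), and Des, the muscle intermediate filament gene, by -0.32 (SE 0.084). Ankrd1, a nuclear cofactor gene of heart muscle, differed by 0.80 (SE 0.095) and Tcap, which encodes a titin cap protein, by 0.44 (SE 0.096), both above wild-type on both Jmjd3-/- arrays (limma adjusted p = 0.211 and 0.335).

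Among 18 calcium, conduction and secreted genes 12 were tested, 0 passed in either direction, and the median was -0.019. Gja5, the connexin gene of atria and arteries, differed by -0.35 (SE 0.080), and Slc8a1, the sodium-calcium exchanger gene, by -0.33 (SE 0.088). Gja1, a widely expressed connexin gene, differed by 0.30 (SE 0.14) and Sln, the atrial sarcolipin gene, by -0.81 (SE 0.37), the last well above background on 1 of 2 Jmjd3-/- arrays.

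Over all genes tested, 7216 of 13580 were negative, 23.7% were lower on both Jmjd3-/- arrays and 23.0% were higher on both. These shares are the background for the lists that follow. Of 11 tested inflow, atrial and sinus venosus genes 9 were negative, with 8 lower on both Jmjd3-/- arrays, and the median was -0.66; 0 passed. Tbx18, active in the sinus horns and in somites, differed by -0.98 (SE 0.12), and Gata4 by -0.56 (SE 0.17). Of 11 tested ventricular and outflow genes 6 were negative and 5 positive, with a median of -0.027, and 0 passed. Mef2c, a muscle transcription factor gene, differed by -0.73 (SE 0.18) and Fgf10 by -0.38 (SE 0.093), while Fgf8, which the tail bud also makes, differed by 0.87 (SE 0.20). Many genes of both lists are also active outside the heart, and some genes stand in several lists, and the lists were not compared by a test.

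Tissues next to the heart were measured on the same arrays. Of 11 epicardium and septum transversum genes, all tested, 9 were negative with a median of -0.56, among them Tcf21 at -0.47 (SE 0.15). Lhx2, which also stands in the head and branchial arch list, differed by -2.57 (SE 0.74). Of 13 endocardium and cushion genes 8 were negative with a median of -0.095, among them Npr3 at -0.46 (SE 0.086) and Twist1 at -0.54 (SE 0.18), while Vcan differed by 0.42 (SE 0.25). Of 10 tested hepatoblast genes 8 were negative with a median of -0.61; Afp differed by -1.26 (SE 0.23), Fgb by -2.08 (SE 0.40) and Apoa2 by -1.71 (SE 0.35), and Ahsg by 1.10 (SE 0.19). The list's summed signal went both ways, at 34.5 and 6.67 on Jmjd3-/- arrays 1 and 9 and 21.2 and 14.3 in wild-type. The sum on Jmjd3-/- array 1 came mostly from 1 gene, the albumin gene Alb, named after its values were seen. Alb had a signal of -2.31 on wild-type array 3, -3.14 on wild-type array 4, 4.73 on Jmjd3-/- array 1 and -7.31 on Jmjd3-/- array 9. It was well above background on 1 of the 2 Jmjd3-/- arrays. In these 3 lists 0 genes passed the limma threshold in either direction.

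Skeletal muscle genes were measured on the same arrays. Of 17 tested myotome and skeletal muscle genes 15 were negative, 10 were lower on both Jmjd3-/- arrays, 7 overlapped between the genotypes and 0 passed, with a median of -0.58. Their summed signal, in multiples of the 75th percentile, was 6.53 to 8.40 in wild-type and 3.49 to 4.85 in Jmjd3-/-, and Ckm and Neb were well above background on 0 arrays. Myh3, the embryonic myosin heavy chain gene, had a signal of -1.76 on wild-type array 3, -2.60 on wild-type array 4, -5.17 on Jmjd3-/- array 1 and -5.28 on Jmjd3-/- array 9, a log2 difference of -3.05 (SE 0.32) with a limma adjusted p of 0.187. Tnnc2, the fast troponin C gene, differed by -2.82 (SE 0.42), Chrng, the fetal acetylcholine receptor subunit gene, by -2.51 (SE 0.45) and the myogenic factor gene Myf6 by -2.25 (SE 0.51). Myh3, Chrng and Myf6 were well above background on 1 of the 2 Jmjd3-/- arrays. So was Myog, while Myf5 was on 0, both named after their values were seen. These genes are all among the 10 that were lower on both Jmjd3-/- arrays. They passed the filter through their wild-type arrays, so that count is partly set by the filter. Myl4 and Tnnt2 are also made by embryonic skeletal muscle, and the part of the myotome in their differences was not tested. Which cells gave the Nkx2-5 and Myl7 signal was not tested either.

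Of 8 genes listed as heart muscle markers, some of which embryonic skeletal muscle also makes, 6 were tested. Nkx2-5, Myl7 and Tnnt2, described above, are 3 of them, and with Actc1 they are the 4 that were lower on both Jmjd3-/- arrays. The other 2, Mybpc3 at -1.19 (SE 0.89) and Actn2 at -0.036 (SE 0.11), named after their values were seen, overlapped between the genotypes. The list had a median of -1.30 and a summed signal of 6.75 to 10.4 in wild-type and 3.53 to 4.97 in Jmjd3-/-; Ttn was well above background on 0 arrays. Actc1, the cardiac actin gene that young skeletal muscle also uses, differed by -0.57 (SE 0.22). Smooth muscle genes had a median of -0.41 over 9 tested genes, with 6 negative and 0 passed, and a summed signal of 68.0 to 79.2 in wild-type and 45.7 to 68.0 in Jmjd3-/-; Cnn1 differed by -1.03 (SE 0.37), Synpo2 by -0.80 (SE 0.40), Myl9 by -0.46 (SE 0.24) and Smtn by 0.14 (SE 0.083). Their part in the heart gene values was not tested.

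Markers of the front and rear of the embryo were listed as well. All 14 tail bud genes were higher on both Jmjd3-/- arrays, where 23.0% of all genes tested were, with a median of 1.21. Their summed signal was 22.7 to 24.6 in wild-type and 42.1 to 72.8 in Jmjd3-/-, and 0 passed the limma threshold. Cdx1 and Cdx2, homeobox genes of the posterior end, differed by 0.79 (SE 0.11) and 1.45 (SE 0.23), and the signal genes Wnt3a and Fgf17 by 1.42 (SE 0.25) and 1.33 (SE 0.24). Of 9 tested head and branchial arch genes 6 were negative, with a median of -0.93. Both Jmjd3-/- arrays were below both wild-type arrays at 5 of the 9 and above them at 3, against 23.7% and 23.0% of all genes tested. Dlx1, among the 5 and named after its values were seen, was well above background on 0 Jmjd3-/- arrays. The list's summed signal was 6.91 to 7.71 in wild-type and 4.83 to 4.88 in Jmjd3-/-. In this list 1 gene passed as lower, Barx1 at -2.75 (SE 0.097) with a limma adjusted p of 0.0409, and 0 passed as higher. With a filter on all 4 arrays, no filter, quantile normalisation, or without Jmjd3-/- replicate 1 or either wild-type replicate, 0 genes passed, so the call was lost there. In that list Dlx2 differed by -0.61 (SE 0.19) and Gbx2 by 0.91 (SE 0.27). Erythroid genes had a median of -0.46 over 10 genes, with 9 negative and 0 passed, and their summed signal was 555 to 707 in wild-type and 362 to 511 in Jmjd3-/-; Rhag differed by -0.81 (SE 0.20), Hba-a1 by -0.74 (SE 0.25), Hbb-bh1 by -0.36 (SE 0.15) and Hbb-y by -0.88 (SE 0.40). Where the tissue was cut is not recorded per sample in the sources used here, and its part in the heart gene values was not tested.

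**Figure D5:**
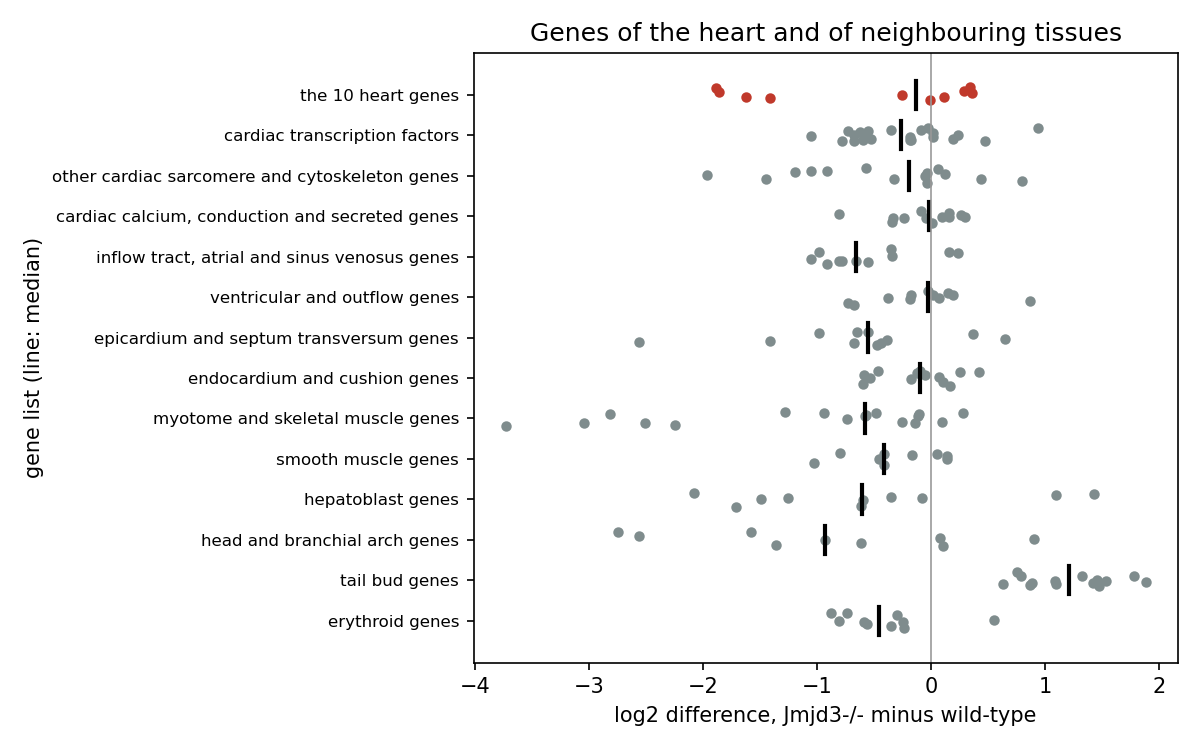
Log2 difference, Jmjd3-/- minus wild-type, of each tested gene (points) in the 10 heart genes (red) and in 13 other lists (grey), with a black line at each median. The 10 heart genes fall in a group of 4 near or below -1.41 and a group of 6 between -0.25 and 0.35, and the tail bud genes lie to the right of 0.

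Genes were ranked by how near their profile over the 4 arrays came to that of Nkx2-5 or Myl7. By root mean square distance between profiles centred on their own means, the nearest to Nkx2-5 were Prr15 at 0.070, Krt20 at 0.11 and Aifm2 at 0.14 log2 units. The nearest to Myl7 were Serpina1d at 0.12, Unc45b at 0.13 and Adamts5 at 0.15. With 4 arrays and 13580 genes, this is a description of likeness and no more.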

How the data were processed

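Cy3-labelled cRNA of 4 RNA samples was hybridised to 1-colour Agilent arrays on 1 slide. The deposited intensity values come from Agilent Feature Extraction 10.7.3.1, per the file headers and per the submitters' processing notes, with background and spatial detrending within each array, and are not normalised between arrays. The authors also deposited a log2 table of unstated scale. Against the scanner values it matched the log2 signal less the 75th percentile, centred on the wild-type mean. In each column 99.88% or more of the probes were within 0.01. Column medians were -0.021 (Jmjd3-/- 1), 0.055 (Jmjd3-/- 9), 0.020 (wild-type 3) and -0.020 (wild-type 4).

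Control spots were left out (1639 of 45018), spots of a probe were averaged as log2 values, and the 75th percentile was subtracted. Names came from the RefSeq table of GRCm38.p6, 26682 probes by accession and 5 by symbol and 23 by synonym, with 14464 unnamed; the arrays were annotated to mm9, so no coordinates were taken across. The brightest probe stood for a gene, tested if well above background on both arrays of a genotype. Limma 3.58.1 in R 4.3.3 (lmFit, eBayes, no covariate) gave log2 differences, Jmjd3-/- minus wild-type, with Benjamini-Hochberg adjustment over 13580 genes and a threshold of 0.05; the fit was tested on simulated data. Lists carry no test. The genotypes do not share replicate numbers. The Jmjd3-/- arrays were at positions 1 and 4 of the slide and wild-type between them, so genotype cannot be told apart from an effect of end against middle positions. The members and lists were chosen with earlier results of these data known; up to 4 genes of each list by p are named, with Kdm6b and the 3 nearest profiles of Nkx2-5 and of Myl7. Normexp used median spot signals. The number of arrays limits the precision.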

Additional observations from a re-analysis of the deposited data

How the results depend on the processing

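Over 12 alternative settings the 10 heart genes gave 118 values, of which 113 kept their direction and side of the limma threshold and 5 reversed; 0 passed, with a lowest adjusted p of 0.0572 (Nkx2-5 without Jmjd3-/- replicate 9, whose adjusted p reached 0.955 in another setting). Those that reversed were Myh6, at 0.078 with normexp, 0.091 without Jmjd3-/- replicate 9 and 0.78 with wild-type replicate 3 left out, and Tbx20, at 0.044 without Jmjd3-/- replicate 1 and 0.029 with wild-type replicate 3 left out; over arrays left out Myh6 ranged from -0.81 to 0.78 and Tbx20 from -0.55 to 0.044. With 1 array left out, the lone array was taken to vary like the other genotype; the median of the 10 genes ranged from -0.67 to 0.092, the atrial median from -1.43 to -0.46, the ventricular median from 0.19 to 0.39, the atrial less ventricular difference from -1.41 to -0.70, and the count of genes called over all genes from 0 to 176, with 176 without Jmjd3-/- replicate 9 and 0 without each of the others. That count was 0 with a filter on all 4 arrays, without a filter and with quantile normalisation, 3 with probes averaged per gene and 2 with normexp, against 5; the cause was not tested. A filter on all 4 arrays removed Nkx2-5 and Myh6 and gave an atrial median of -1.62. Changing the filter left the estimate of each kept heart gene unchanged, and removing outlier spots changed only that of Nppa, to 0.39. The deposited table gave nearly the same estimates as the main fit. Agreement in these settings adds little to the 113 values that kept their direction and side. Leaving out chromosome 11 removed Myl7 and Myl4 and gave a median of 0.052, an atrial median of 0.16 and an atrial less ventricular difference of -0.090. The count of heart genes more than 2-fold lower, an alternative added after the data were seen, was 2 of 8 with chromosome 11 left out (Nkx2-5 and Tnnt2) and 3 or 4 in each of the other 12 alternatives. No paired analysis was possible because the genotypes share no replicate number, and the slide could not serve as a block because there is 1 slide. Signal over background limits Nkx2-5 and Myh6.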
